A study of Rattus norvegicus with 4 samples.

Results

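Ribbon synapse genes were followed in 2 RNA sequencing libraries of the rat eye, one labelled eye and one labelled retina. The group held 10 genes chosen by symbol: Ctbp2, Bsn, Pclo, Rims2, Unc13b, Cacna1f, Cacna2d4, Cabp4, Cplx3 and Cplx4. A value was found for 10 of 10, among 14485 gene names in all. The rule picks genes by name alone, though earlier results of these data were known when it was written. Both libraries came from wild-type Long Evans rats, a pigmented strain, and the RNA of 5 rats was pooled for each. The labels list 2 technical replicates per tissue, but 1 column of values per tissue was analysed. It is not known if that column merges the technical replicates, so the differences below carry no p-value and could not be checked across replicates.

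Photoreceptors and bipolar cells signal with graded release of glutamate, and their terminals hold a synaptic ribbon, a plate that tethers vesicles beside the active zone. Calcium enters through L-type channels under the ribbon and drives fusion of the docked vesicles. Scaffold proteins hold ribbon, channel and vesicle together, priming factors make vesicles ready, and complexins act on the fusion machinery. Loss of several of these proteins in human or mouse impairs transmission from photoreceptors to bipolar cells.

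The values are taken as RPKM, that is reads divided by the gene's length and by all reads of the library. Levels can thus be set beside each other between genes as far as the gene lengths used hold, and these are not stated. The totals that fitted the values were 28071917 reads for eye and 51944762 for retina. Whole reads were recovered for 10 of 10 ribbon synapse genes, from 1057 to 6999 in eye and from 3754 to 32184 in retina. Intervals below are exact 95% intervals from these reads. They hold counting error alone and say nothing of the spread between animals or of error in the gene lengths used. The tissue labels set eye apart from retina, although a further label text describes all 4 samples as retina RNA. Of 18 lens marker genes with a value, 17 had values in eye at least 2-fold above retina, and their summed value was 92.8-fold higher in eye. Of 12 skeletal muscle markers, 12 were higher in eye. Rod markers were found in both libraries, none of 13 at 0 in either, with a summed value of 19777 in eye and 39259 in retina. Summed cone markers were at 254 in eye and 564 in retina, and summed bipolar markers at 408 in eye and 700 in retina, again with none at 0.

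All 10 ribbon synapse genes had the lower value in the eye library, where 50.7% of 13259 genes tested did. Of the 10, 5 were at least 2-fold lower in eye (Cacna2d4, Cacna1f, Bsn, Cabp4 and Ctbp2), against 7.95% of all genes tested. None of the 10 was at least 2-fold higher in eye, against 17.8% of all genes tested. Genes were tested where a value reached 1 in either library, and all 10 passed. The levels of the 10 genes stood above 25.4% to 98.7% of all genes in eye and above 42.4% to 99.6% in retina. The median log2 ratio of eye over retina, with 0.1 added to each value, was -0.97 for the 10 genes and -0.01 for all genes tested. At a fold of 1.5, 10 of 10 were lower in eye, against 21.9% of all genes. At a fold of 4 the count was 0, against 0.0905%. With the whole counting interval required to lie beyond 2-fold, 4 of the 10 were lower (all but Ctbp2 of those named), against 4.37% of all genes with reads. A lower value in a bulk library can come from fewer cells of a type or from less RNA per cell. As values are relative to all reads of a library, it can also come from more RNA of other tissues. These sources cannot be told apart here.

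The scale of the whole library sets how many of the 10 pass the 2-fold line. Lens genes held at least 12.6% of the eye library's reads and 0.141% of those of retina. With lens reads taken out of both totals, 3 of the 10 stayed at least 2-fold lower in eye (Bsn, Cacna1f and Cacna2d4), against 4.21% of all genes. With 1 added in place of 0.1, or with a median of ratios as the scale, 4 were lower, against 4.94% and 7.79% of all genes. With the summed values made equal, 10 of 10 were lower, against 31.9%. That scaling also turned the balance over all genes, with 26.4% of called genes higher in eye, against 69.2% as deposited. A scaling moves all genes alike, so by construction it hardly changes the median of the 10 relative to all genes, which was -0.96 as deposited.

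**Figure D1:**
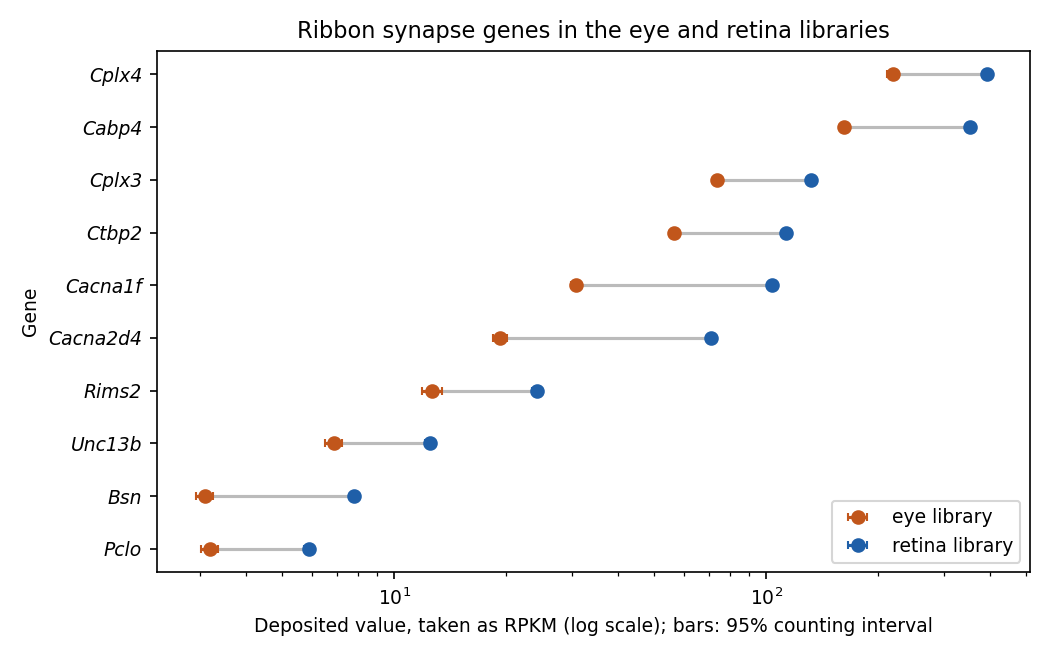
Deposited values, taken as RPKM, of the 10 ribbon synapse genes (log axis), in the eye library (orange) and the retina library (blue), with 95% counting intervals as bars. Every gene has its lower value in eye, and the gap is widest for Cacna2d4 and Cacna1f.

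The members of the ribbon and its active zone scaffold spanned a wide range of levels. Ctbp2 encodes CtBP2, a transcriptional corepressor found in many tissues, and, from an alternative start, RIBEYE, the main building block of the ribbon. A value per gene cannot separate these products. Ctbp2 had 56.4 RPKM in the eye library, against 113 RPKM in the retina library. It was 2.00-fold lower in eye (interval 1.95 to 2.06), on the 2-fold line within counting error. The value was the fourth highest of the 10 in both libraries, above 92.7% of all genes in eye and 97.5% in retina.

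Bsn encodes bassoon, a very large scaffold protein that anchors the ribbon to the active zone. Its value was 3.10 RPKM in eye, against 7.81 RPKM in retina, lower in eye by 2.52-fold (interval 2.38 to 2.67). Pclo encodes piccolo, a large relative of bassoon, of which a short form is found at ribbons. Pclo had 3.19 RPKM in eye and 5.89 RPKM in retina, lower in eye by 1.84-fold (interval 1.74 to 1.96) and not past the threshold. These were the lowest members in both libraries. In eye the intervals of Bsn and Pclo overlapped, with a ratio of Bsn to Pclo of 0.971 (interval 0.901 to 1.05). In retina the ratio was 1.33 (interval 1.28 to 1.38), so the Bsn value stood above that of Pclo there. A value per gene cannot separate the short form of piccolo from the long one, so the order of the RNAs themselves is not known.

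The priming factors were of middle to low level and differed less between libraries. Rims2 encodes RIM2, an active zone protein that binds vesicles and calcium channels. It had 12.6 RPKM in eye and 24.2 RPKM in retina, lower in eye by 1.92-fold (interval 1.79 to 2.06). Unc13b encodes Munc13-2, a vesicle priming factor. Its value was 6.88 RPKM in eye, against 12.5 RPKM in retina, lower in eye by 1.81-fold (interval 1.71 to 1.92). Neither passed the threshold, and only the interval of Rims2 reached past 2-fold. The ratio of Rims2 to Unc13b was 1.84 in eye (interval 1.70 to 1.99) and 1.94 in retina (interval 1.86 to 2.03), and these intervals overlapped.

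The calcium channel genes held the widest differences. Cacna1f encodes the pore-forming subunit of Cav1.4, the L-type channel of photoreceptor terminals. It had 30.7 RPKM in the eye library, against 104 RPKM in the retina library, 3.38-fold lower in eye (interval 3.28 to 3.48). Cacna2d4 encodes the alpha2delta-4 subunit, an extracellular partner of that channel. It had 19.3 RPKM in eye and 71.0 RPKM in retina, and was 3.69-fold lower in eye. The intervals of the fold for Cacna2d4 (3.51 to 3.87) and for Cacna1f did not overlap. Of 13259 genes tested, 20 had a lower log2 ratio than Cacna2d4 (0.151%) and 41 had a lower one than Cacna1f (0.309%).

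Cabp4 encodes a calcium-binding protein that binds Cav1.4 and shifts its opening to lower voltages. Its value was the second highest of the 10, at 161 RPKM in eye and 352 RPKM in retina, lower in eye by 2.18-fold (interval 2.12 to 2.24). The channel genes and the gene of their regulator thus stood in different proportions in the libraries. The ratio of Cabp4 to Cacna1f was 5.25 in eye (interval 5.06 to 5.45) and 3.39 in retina (interval 3.34 to 3.45). Cabp4 to Cacna2d4 gave 8.39 in eye (interval 7.96 to 8.83) and 4.96 in retina (interval 4.85 to 5.07). The ratio of Cacna1f to Cacna2d4 differed less, though also by more than counting error, with 1.60 in eye (interval 1.51 to 1.68) and 1.46 in retina (interval 1.43 to 1.49).

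The complexin genes had the smallest folds, with intervals that overlapped those of Unc13b, Pclo and Rims2. In both libraries they stood in the same proportion to each other within counting error. Cplx4 encodes complexin 4, one of the complexins typical of retinal ribbon synapses. It had the highest value of the 10, at 219 RPKM in eye and 393 RPKM in retina, lower in eye by 1.80-fold (interval 1.73 to 1.86). Cplx3, which encodes complexin 3, the other ribbon synapse form, had 73.5 RPKM in eye and 132 RPKM in retina, lower in eye by 1.79-fold (interval 1.75 to 1.84). The ratio of Cplx4 to Cplx3 was 2.97 in eye (interval 2.86 to 3.09) and 2.98 in retina (interval 2.91 to 3.04). Neither gene passed the 2-fold threshold.

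**Figure D2:**
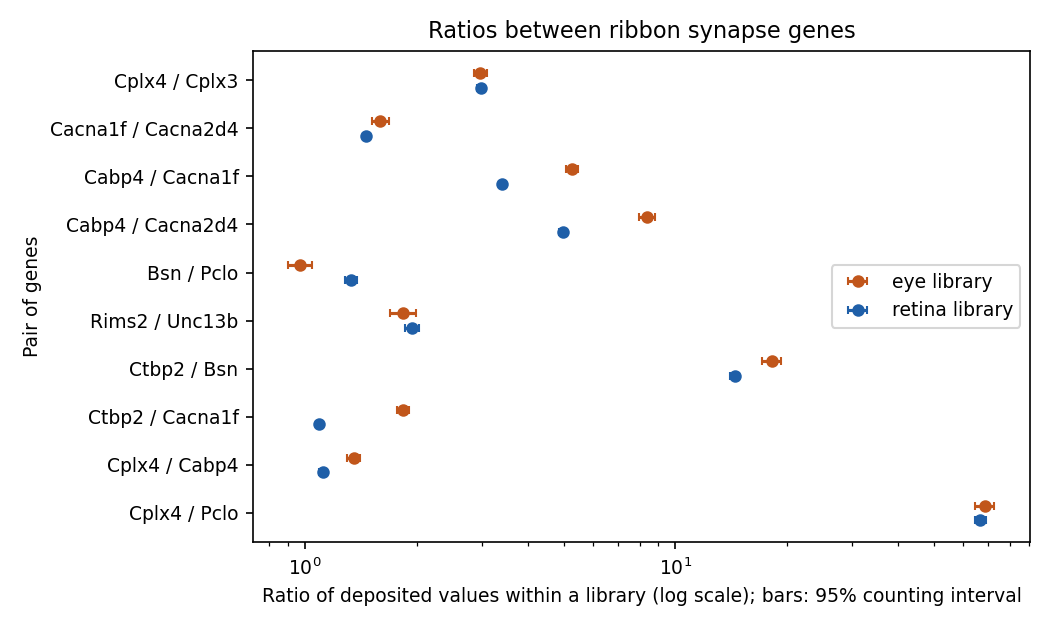
Ratio between the deposited values of 2 ribbon synapse genes within a library (log axis), for the eye library (orange) and the retina library (blue), with 95% counting intervals as bars. Cplx4 over Cplx3 falls at the same place in both libraries (2.97 in eye and 2.98 in retina), whereas Cabp4 over Cacna1f does not (5.25 in eye and 3.39 in retina).

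By level, the order of the 10 genes was Cplx4, Cabp4, Cplx3, Ctbp2, Cacna1f, Cacna2d4, Rims2 and Unc13b in both libraries. Below these came Pclo and then Bsn in eye, and Bsn and then Pclo in retina. Apart from Pclo and Bsn in eye, no neighbours in either order had overlapping counting intervals, although the spread between animals and the gene lengths used are not known. By fold, Cacna2d4, Cacna1f, Bsn and Cabp4 each stood clear of the next gene by their counting intervals. From Ctbp2 through Rims2, Pclo, Unc13b and Cplx4 down to Cplx3, each interval overlapped the next.

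Bases before the start sites of Cplx4 and Cabp4, the members with the highest values, and of the channel gene Cacna1f are shown. They come from the RefSeq promoter table of the rat assembly GRCr8, a build other than the rn4 of the files, and each run of 250 bases ends just before the start that table gives. The table held 8 of the 10 genes, without Cacna2d4 and Rims2. Capitals mark TAATCC or its reverse complement GGATTA, the core letters bound by CRX and OTX2, transcription factors of photoreceptors. Cabp4 (chr1:210862633-210862882, minus strand), Cplx4 (chr18:61767755-61768004, minus strand) and Cacna1f (chrX:17568309-17568558, minus strand) read as follows.
Cabp4: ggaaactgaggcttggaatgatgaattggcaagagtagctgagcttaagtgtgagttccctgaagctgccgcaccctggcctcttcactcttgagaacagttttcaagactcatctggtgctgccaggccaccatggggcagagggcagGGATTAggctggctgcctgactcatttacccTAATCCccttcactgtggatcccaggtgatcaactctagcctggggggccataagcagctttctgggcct
Cplx4: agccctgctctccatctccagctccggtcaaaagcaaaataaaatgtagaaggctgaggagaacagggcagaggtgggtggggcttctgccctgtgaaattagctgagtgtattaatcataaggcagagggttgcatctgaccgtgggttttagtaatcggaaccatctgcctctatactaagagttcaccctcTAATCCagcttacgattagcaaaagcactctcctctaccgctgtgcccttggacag
Cacna1f: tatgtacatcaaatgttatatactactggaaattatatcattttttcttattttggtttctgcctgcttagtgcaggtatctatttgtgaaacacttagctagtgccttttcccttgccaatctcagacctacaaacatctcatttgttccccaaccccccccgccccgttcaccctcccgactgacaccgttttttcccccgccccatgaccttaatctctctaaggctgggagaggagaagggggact
In the Cabp4 window the letters stood at 101 to 96 bases before the start, on the strand opposite to the gene, and at 70 to 65 bases before it, on the strand of the gene. The Cplx4 window held them once, at 56 to 51 bases before the start, and the Cacna1f window did not hold them. Of the 8 genes with an entry, 3 (Cabp4, Cplx4 and Ctbp2) had TAATCC on either strand, against 6.34% of 33469 windows of the same length. The letters TGCTGA or TCAGCA, the core of the site of NRL, the rod transcription factor, were searched on both strands as well and do not overlap TAATCC. They were found before 1 of the 8 genes (Unc13b), against 15.1% of all windows. Unc13b has more than 1 start in that table, and the letters stood before only 1 of its starts, whereas the share counts each window by itself. A match of letters is a description of the sequence only.

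Paralogs of the members give a measure within each family that scaling does not touch. Among 4 complexin genes, Cplx4 held 62.8% of the summed value in eye and 62.3% in retina, and Cplx3 21.1% in eye and 20.9% in retina. Cplx1 and Cplx2, the complexins of conventional synapses, made up the rest. Cplx1 had 31.2 RPKM in eye and 63.2 RPKM in retina and was called lower in eye. Its fold was 2.03 (interval 1.92 to 2.14), on the 2-fold line within counting error. Cplx2 had 24.8 RPKM in eye and 42.7 RPKM in retina and was not called.

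Cacna1f held 88.4% of the summed value of the 3 Cav1 pore genes with a value in eye, and 93.4% in retina. No value was found for Cacna1s, another Cav1 pore gene, so these shares leave it out and are not those of the whole family. Cacna1d, the pore gene of Cav1.3, had 2.97 RPKM in eye and 6.08 RPKM in retina, and Cacna1c, of Cav1.2, had 1.06 RPKM in eye and 1.21 RPKM in retina. Cacna2d4 held 44.5% of the summed alpha2delta genes in eye, against 64.0% in retina. Cacna2d2 held 33.6% in eye and 26.0% in retina, at 14.5 RPKM in eye and 28.9 RPKM in retina. Cacna2d1, widely expressed in muscle and nerve, had its higher value in eye, 4.45 RPKM, against 3.06 RPKM in retina. Cacna2d3 stood at 5.03 RPKM in eye and 8.01 RPKM in retina.

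Cabp4 made up 65.1% of the 4 CaBP genes in eye and 67.6% in retina, with Cabp1 next at 75.0 RPKM in eye and 148 RPKM in retina. Cabp2 had 4.25 RPKM in eye and 8.11 RPKM in retina, and Cabp5, a gene of bipolar cells, 7.32 RPKM in eye and 12.8 RPKM in retina. Rims2 held 49.0% of the 4 RIM genes in eye and 52.4% in retina. Rims1 stood at 3.95 RPKM in eye and 5.86 RPKM in retina, Rims3 at 5.43 RPKM in eye and 8.11 RPKM in retina, and Rims4 at 3.78 RPKM in eye and 8.01 RPKM in retina.

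In the Munc13 family the leading gene differed between libraries. Unc13b led in eye with 34.9% of the family, against 31.0% in retina. Unc13a, the main priming factor of conventional synapses in brain, led in retina with 41.8%, against 24.4% in eye, and its values were 4.80 RPKM in eye and 16.8 RPKM in retina. Unc13c had 5.35 RPKM in eye and 6.38 RPKM in retina. Ctbp1, the paralog of Ctbp2, had the higher value of the pair in both libraries, at 90.0 RPKM in eye and 123 RPKM in retina. Ctbp2 held 38.5% of the pair in eye, against 47.8% in retina.

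**Figure D3:**
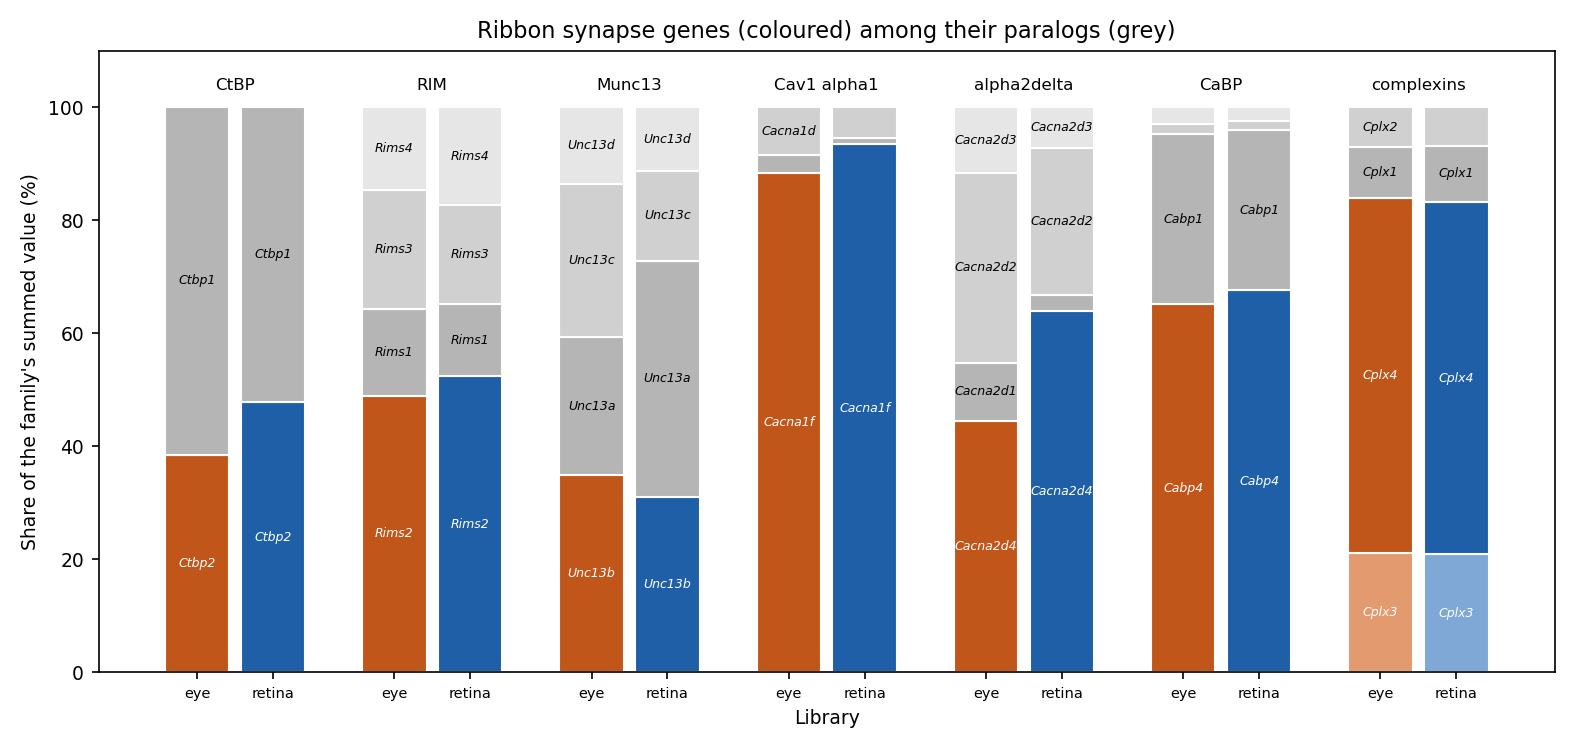
Share of each gene in the summed value of its family (percent), in the eye library (left bar, orange for ribbon synapse genes) and the retina library (right bar, blue), with paralogs in grey. Shares of Cplx4 and Cplx3 are alike in both libraries, whereas Cacna2d4 takes 44.5% in eye and 64.0% in retina.

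Other proteins of the terminal were read from 4 lists. Of 15 other active zone genes, 6 were at least 2-fold lower in eye and 0 higher, where all genes gave 7.95% and 17.8%, and the median log2 ratio was -0.74. The lowest was Tspoap1, under its older symbol Bzrap1, which encodes a RIM-binding protein linking RIM to calcium channels. It had 5.38 RPKM in eye and 19.8 RPKM in retina, lower in eye by 3.69-fold (interval 3.43 to 3.97), and Unc13a was 3.50-fold lower (interval 3.25 to 3.78). Both intervals overlapped those of Cacna1f and Cacna2d4. Erc1, a scaffold protein of many cell types, had the highest ratio, with 3.59 RPKM in eye and 3.53 RPKM in retina. Ppfia1 (liprin-alpha-1) had 16.5 RPKM in eye and 19.5 RPKM in retina.

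Of 15 other calcium channel and calcium sensor genes, 2 were lower in eye (Cacna1b and Cacna1d), against 7.95% of all genes tested. Cacna1d, at 2.05-fold (interval 1.88 to 2.23), lay on the 2-fold line within counting error. The count of higher genes was 0, against 17.8%, and the median was -0.82. Cacna1b, the pore gene of the N-type channel, had 1.40 RPKM in eye and 3.31 RPKM in retina. Cacnb3, a cytoplasmic channel subunit, had 29.6 RPKM in eye and 53.1 RPKM in retina.

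Of 20 tested SNARE and vesicle genes, 8 were lower in eye and 0 higher, against 7.95% and 17.8% of all genes tested, with a median of -0.97. Slc17a7, which loads glutamate into vesicles, had 270 RPKM in eye and 727 RPKM in retina. Doc2b, a calcium sensor of vesicle fusion, was the lowest, at 14.0 RPKM in eye and 43.1 RPKM in retina, lower in eye by 3.08-fold (interval 2.83 to 3.35). Syp (synaptophysin) had 234 RPKM in eye and 486 RPKM in retina, while Snap25, a SNARE protein of synapses, had 373 RPKM in eye and 410 RPKM in retina. Stx1a was listed at 0 in both libraries.

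Of 16 ribbon-associated and trans-synaptic genes, 8 were lower in eye and 0 higher, against 7.95% and 17.8% of all genes tested, with a median of -0.98. Unc119, a lipid-binding protein abundant at photoreceptor synapses, had 888 RPKM in eye and 1673 RPKM in retina. Guca1b, which encodes a guanylate cyclase activator that binds RIBEYE, had 540 RPKM in eye and 1081 RPKM in retina. Tulp1, a trafficking protein of photoreceptors, had 280 RPKM in eye and 736 RPKM in retina. Mpp4, a scaffold of the photoreceptor terminal, was the lowest, at 74.5 RPKM in eye and 213 RPKM in retina, lower in eye by 2.85-fold (interval 2.76 to 2.94). Dag1 (dystroglycan), which many tissues express, had its higher value in eye, 33.9 RPKM, against 21.6 RPKM in retina, without being called.

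Set beside markers of retinal cells, the members other than Cacna1f and Cacna2d4 lay within the range of the rod markers, from -1.35 to 0.30 on the log2 scale. The top of that range was Gngt1, with the next rod marker, Cnga1, at -0.48. These members also lay within the ranges of the cone markers (-1.67 to 0.01) and of the amacrine and horizontal markers (-1.40 to 2.59). The top of the amacrine and horizontal range was Pvalb, called higher in eye, with the next marker, Calb1, at 0.002. All of these members but Bsn lay within the range of the bipolar markers (-1.22 to -0.33). The median log2 ratio was -1.06 for 13 rod markers, -1.13 for 10 cone markers, -0.84 for 11 bipolar markers and -0.84 for 11 amacrine and horizontal markers. Cplx3, Cplx4, Unc13b and Pclo, between -0.86 and -0.84, lay close to the medians of the bipolar and of the amacrine and horizontal markers. Cabp4 (-1.12) lay near the medians of rod and cone markers. Cacna2d4 (-1.88) and Cacna1f (-1.75) lay below every marker of these 4 lists. With the rod median set to 0, Cacna2d4 stood at -0.82 and Cacna1f at -0.70, and 0 of the 10 genes were 2-fold lower, against 0.083% of all genes. Gnat2, a cone transducin gene and the lowest of these markers, was 3.20-fold lower in eye (interval 2.81 to 3.65), an interval that overlaps those of both Cacna1f and Cacna2d4. The part of the cell makeup in these differences was not tested.

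**Figure D4:**
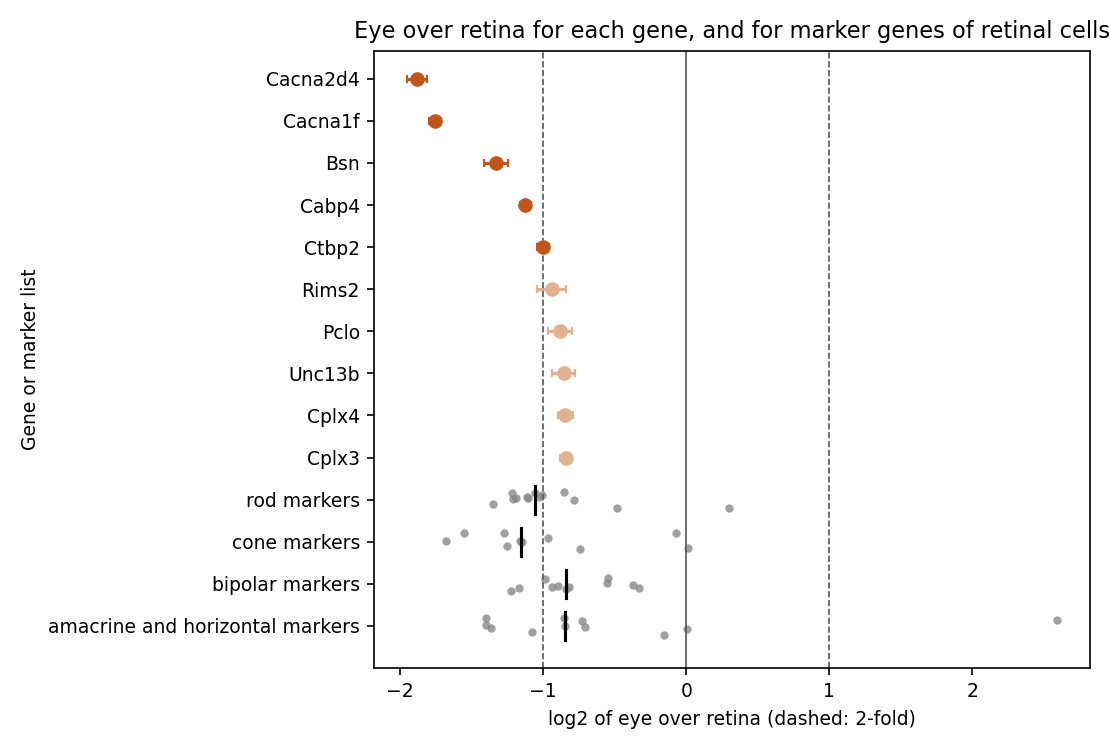
Log2 of the eye value over the retina value for each ribbon synapse gene (bars are 95% counting intervals, dark orange for at least 2-fold lower in eye, light orange for less), and for tested marker genes of 4 retinal cell groups (grey points, black line at the median). Cacna2d4 and Cacna1f lie left of all marker genes, and Cplx3 and Cplx4 lie right of the dashed 2-fold line.

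Genes that overlap a member may share its reads where counting ignores strand, and whether strand was used is not stated by the labels or files. By the RefSeq table, Lrtm2 lies within the span of Cacna2d4, with 3.54 RPKM in eye and 5.98 RPKM in retina. One end of Cacna2d4 overlaps Adipor2, which had 11.7 RPKM in eye and 10.6 RPKM in retina. The span of Cacna1f overlaps a long noncoding RNA gene over 75.7% of its length, whose values were not analysed here. Tmem134 and Gpr152 overlap Cabp4. Tmem134 had 52.1 RPKM in eye and 20.3 RPKM in retina, opposite in direction to Cabp4, and Gpr152 had 0.0902 RPKM in eye and 0.390 RPKM in retina. Genes for which no value was found also overlap Ctbp2, Rims2 and Unc13b, each over at most 2.77% of the member's span. The part of any overlapping gene in the values of the members was not tested.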

How the data were processed

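The 4 samples are 2 technical replicates of each tissue and their titles give the group. GSNAP and HTSeq with build rn4 are named, per the submitters' processing notes. Their versions and settings, the annotation and strand use are not stated there. The deposited values are taken as RPKM, a unit inferred from the values. Each file held 14533 rows, 7 without a value (ND). Of 41 repeated names the row with most decimals was kept.

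The library totals and the smallest whole reads were found by a search over whole lengths, which gave whole reads for 13760 of 13980 genes. Each gene's true reads could be a multiple of those found, which would make the intervals narrower. The totals kept were the most common ones, from 2934 genes for eye and 2244 for retina. Next came 2 times that eye total (1685 genes) and 0.5 times that retina total (1848 genes). The search was tested on simulated data. As no molecular identifiers are named, reads may repeat a molecule.

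The log2 ratio of eye over retina used 0.1 added to each value, which understates changes of low genes, over 13259 genes reaching 1 in at least 1 library. Genes were called at a 2-fold difference. The folds of single genes are ratios of the values as deposited. Intervals of a ratio are Clopper-Pearson, those of a level exact Poisson (SciPy 1.17.1, Python 3.11.15). The members and lists were chosen with earlier results of these data known, and the pairs of genes for ratios after their values were seen. From each list, the 3 genes with the highest mean, those with the highest and lowest ratio and paralogs of members were named. Not every gene so chosen is reported.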

Additional observations from a re-analysis of the deposited data

How the results depend on the processing

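Of the 10 ribbon synapse genes, 5 were at least 2-fold lower in eye as reported. The count was 10 at a fold of 1.5, 0 at a fold of 4, 3 with totals without lens genes, 10 with equal summed values and 0 with the rod median set to 0. These follow from how the settings are built, since a scaling moves the log2 ratio of every gene, by 0.19 without lens genes, by -0.64 with equal summed values and by 1.06 with the rod median. With 1 added, with a median of ratios or with counting intervals beyond 2-fold, 4 were lower, Ctbp2 being the one lost. The median relative to all genes, which scalings leave nearly fixed by construction, ran from -0.97 to -0.90. With the rod median set to 0, 6 genes changed sign, with log2 ratios of 0.21 for Cplx3, 0.21 for Cplx4, 0.20 for Unc13b, 0.17 for Pclo, 0.12 for Rims2 and 0.056 for Ctbp2. No paired analysis was possible because each tissue has a single column of values, and no replicate could be left out. Each library rests on 1 pool, so the spread between animals is unknown.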

Other observations

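The middle of the ribbon synapse genes, taken as their median level in each library, was 24.3 RPKM in eye and 85.8 RPKM in retina. In both libraries it falls between Cacna2d4 and Cacna1f, and its ratio of 3.53 is theirs rather than the group's median fold of 1.96. The 5 other genes nearest to that point, by distance on the log2 scale over 2 libraries, were Gnat2, Leng8, Pde6h, Sema6c and Gucy2e. Gnat2 had 24.7 RPKM in eye and 79.1 RPKM in retina, and Pde6h, the inhibitory subunit of the cone phosphodiesterase, 27.4 RPKM in eye and 80.3 RPKM in retina. Leng8 stood at 25.6 RPKM in eye and 78.5 RPKM in retina, Sema6c, a semaphorin gene, at 23.2 RPKM in eye and 75.1 RPKM in retina, and Gucy2e, a guanylate cyclase gene of photoreceptors, at 27.1 RPKM in eye and 76.9 RPKM in retina. The distance rests on 2 values per gene.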
